A study of Homo sapiens with 30 samples.

Results

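The accessible sites in the 300 kb around FKBP5 are described here across 2 prostate cancer cell lines and 5 doses of androgen. The window is hg38 chromosome 6 from 35.5 to 35.8 Mb. Its members are all entries of the 30 deposited peak lists with a summit inside it, 1036 entries of 4661359 in all. Grouped by position, these entries formed 204 sites of 886426 in the genome, and 71 of them were recurrent, which means listed in at least 3 of the 15 libraries of at least 1 line. The other 133 sites held 210 entries, and 81 sites were listed in a single library.

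FKBP5 encodes FKBP51, an immunophilin that binds HSP90 in steroid receptor complexes. Steroid receptors, the glucocorticoid receptor among them, are known to raise its transcription through enhancers that lie far inside the gene as well as around it, and it is widely used as an androgen-responsive gene in prostate cells. An enhancer that a receptor has opened is cut more often by the Tn5 transposase, and ATAC-seq then gives a peak there.

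Omni-ATAC-seq, which inserts sequencing adapters into open DNA, was run on LNCaP and VCaP, established human prostate cancer lines that respond to androgen. Every group was first kept for 48 hours without added steroid, in 8% charcoal-stripped serum (RPMI medium for LNCaP, DMEM for VCaP). R1881, which is a synthetic androgen, or vehicle followed for 24 hours. LNCaP was given 0.03, 0.06, 0.1 or 10 nM and VCaP 0.01, 0.03, 0.06 or 10 nM, each line beside its own vehicle group, with 3 libraries in each of the 10 groups. The labels number the replicates without saying that they were separate cultures, so p-values measure the spread between these libraries, which may be technical.

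The 71 recurrent sites comprised 56 in LNCaP and 39 in VCaP, with 24 in both. FKBP5 runs on the minus strand from 35728583 down to 35573590 and RefSeq also places a start further inside, at 35688915. Sites are named below by their distance into the gene from the upstream start, so that +117.5 kb lies inside the gene and -50.1 kb before it. Of the recurrent sites, 37 lay within the FKBP5 body, 3 of them also within the overlapping noncoding gene LOC285847, and 18 lay between genes. The rest lay in LOC285847, ARMC12, CLPSL2, CLPSL1, CLPS or LOC124901310. Exon and intron positions were not used here.

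The recurrent sites nearest the window's edges were listed in few libraries, except the first one outside the high end. The nearest recurrent site inside its low end, at 35521502, was listed in 3 LNCaP libraries, and the nearest site outside it, at 35497672, in 5 LNCaP and 4 VCaP libraries. At the high end the last site inside, at 35798477, was listed in 6 LNCaP libraries, and the first outside, at 35805289, in all 15 libraries of each line.

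The annotated starts differ in sequence, which is shown because a peak was listed at or near both in almost every library. Each line below is the RefSeq window from 250 bases before to 50 after a start, minus strand of GRCh38.p14, and capitals mark AGAACA, the half-site bound by steroid receptors. The upstream window is chr6:35728534-35728833 and the downstream one chr6:35688866-35689165.
FKBP5 upstream start: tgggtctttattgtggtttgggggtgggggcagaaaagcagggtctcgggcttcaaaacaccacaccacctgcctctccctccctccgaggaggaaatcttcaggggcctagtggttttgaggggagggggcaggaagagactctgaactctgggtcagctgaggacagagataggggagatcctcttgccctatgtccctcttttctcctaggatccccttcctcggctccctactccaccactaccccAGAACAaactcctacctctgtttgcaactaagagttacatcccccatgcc
FKBP5 downstream start: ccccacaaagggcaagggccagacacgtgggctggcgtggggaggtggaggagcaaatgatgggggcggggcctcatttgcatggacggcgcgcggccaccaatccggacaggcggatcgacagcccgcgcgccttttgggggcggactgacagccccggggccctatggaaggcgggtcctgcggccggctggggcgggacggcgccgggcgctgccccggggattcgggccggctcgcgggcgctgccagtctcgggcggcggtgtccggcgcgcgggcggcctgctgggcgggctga

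The downstream window held 38 CpG dinucleotides, and the upstream one 3, where the median of all RefSeq promoter windows was 14. A peak summit fell inside the downstream window in 29 of the 30 libraries and inside the upstream window in 0 of 30. The nearest recurrent site to the upstream start lay 463 bp into the gene. AGAACA, searched on both strands, occurred once in the upstream window, at the annotated first base, and not in the downstream one. It was present in 14.8% of 35116 promoter windows of the same length, so its presence in 1 window is a description only. The forkhead motif TGTTTAC, on both strands, and the complete androgen response element, in its exact consensus form, were in neither window, and 3.42% and 0.00285% of all windows held them. AGAACA is contained in the complete element.

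Site values are percentile ranks. Each deposited list was shortened to the length of the shortest list of its line, and a site's value is the percentile, from 0 to 100, of its best summit by −log10 p in that library. A value of 0 means that the shortened list has no summit at the site, which can still hold signal below the authors' threshold. Changes are differences in percentile points with the standard error of limma's fit over all sites of a line, and the call threshold was 0.05 for the p adjusted over all sites tested by the Benjamini-Hochberg method. Of the recurrent sites, 37 were tested in LNCaP and 34 in VCaP.

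In LNCaP with 10 nM, 14 of the 37 tested sites rose and 2 fell against vehicle, while 23.7% of all tested sites in the genome were called, 14.98% as rises and 8.75% as falls. The median difference over the 37 sites was 10.1 points, and over all tested sites it was -0.0925. Of the 14 rises, 8 lay within the FKBP5 body, which also held 37 of the 71 recurrent sites of both lines. That count therefore describes position only. Ranked by fold enrichment over local background in place of −log10 p, 8 sites rose and 6 fell, where 15.2% of all sites in the genome rose and 10.7% fell. In VCaP with 10 nM, 9 of 34 sites rose and none fell, against 7.06% called in the genome, 5.35% as rises. There the median difference was 7.64 points over the 34 sites and 0 over all tested sites. Some sites could be tested only because the libraries with 10 nM listed them, so that their difference followed from the filter. These were sites that fewer than 3 of the other libraries of the line listed. They made up 5 of the 14 LNCaP rises (-50.1, -5.3, +36.9, +158.8 and +160.7 kb) and 6 of the 9 VCaP rises (+2.4, +2.7, +36.9, +137.7, +160.7 and +186.3 kb), and their values are given below without a test. Among the sites that reached the filter with the other libraries alone, 9 of 30 rose and 2 fell in LNCaP, where 12.4% of such sites in the genome rose and 9.67% fell. In VCaP 3 of 25 rose and 0 fell, where 3.81% rose. Leaving out LNCaP 10 nM replicate 5 left 10 called sites, and leaving out VCaP 10 nM replicate 1 or replicate 4 left 5, partly because sites fell below the filter and were no longer tested. The VCaP vehicle replicates 1 and 2 were the shallowest libraries, with background pileups of 1.14 and 1.09 against 1.79 to 2.74 in the other VCaP libraries. With VCaP vehicle held to its deepest library, replicate 4, none of the 9 VCaP calls passed, with 0.968% of all sites called in the genome. In that library the 9 sites were also at 0, so the differences fitted there rest on 1 vehicle library.

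**Figure D1:**
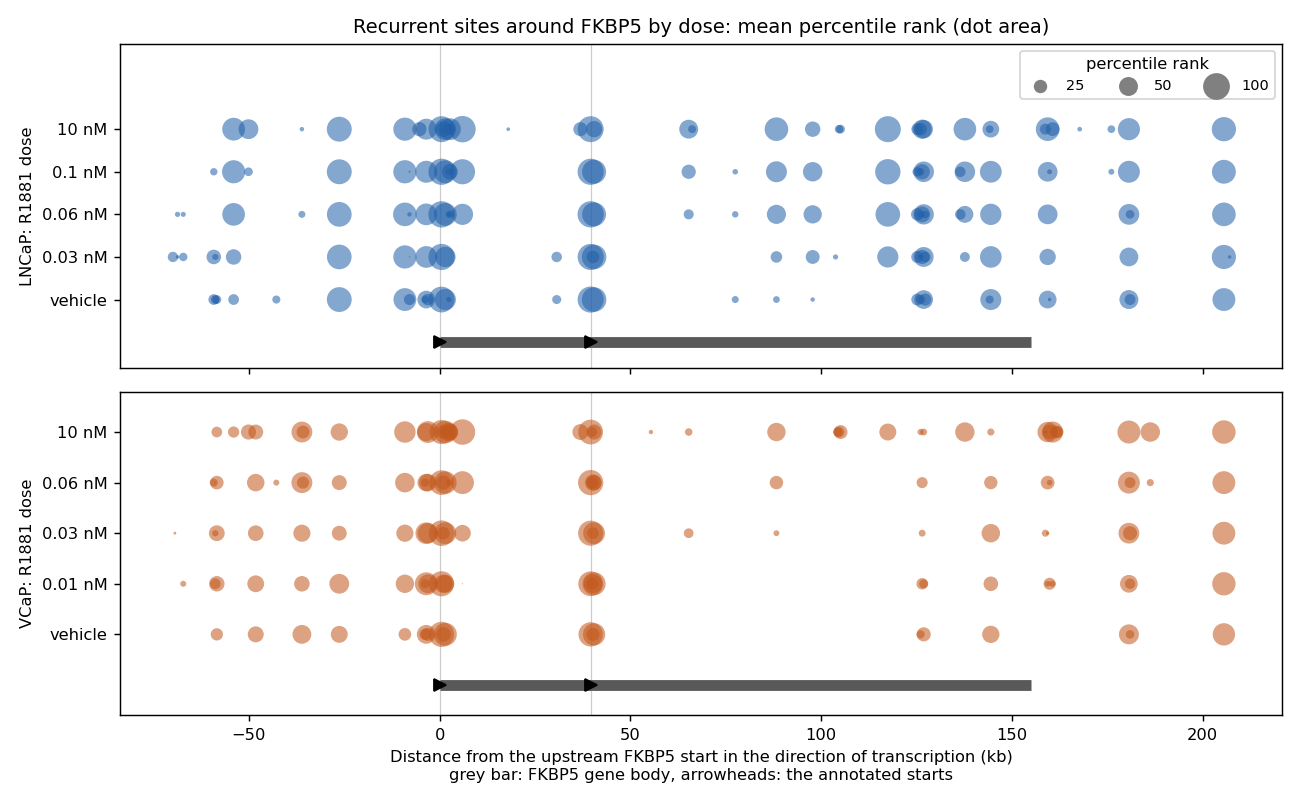
Recurrent sites plotted by distance from the upstream FKBP5 start in kb (horizontal axis) and by R1881 dose in each line (vertical axis), with dot area standing for the mean percentile rank of 3 libraries. The 2 starts carry large dots at every dose in both lines, and the dots at +6.0, +88.3, +117.5 and +137.7 kb appear and grow with dose in LNCaP.

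The window also held more entries at 10 nM. Entries in the window numbered 51, 70 and 68 in the LNCaP libraries with 10 nM, against 21, 27 and 36 with vehicle, and the groups did not overlap. In VCaP they numbered 52, 55 and 56 with 10 nM, against 15, 20 and 23 with vehicle. Per 100000 entries of the list, this was 30.98 ± 0.891 with 10 nM and 17.6 ± 2.699 with vehicle in LNCaP, and 39.4 ± 2.52 with 10 nM and 16.2 ± 1.67 with vehicle in VCaP (SD, n = 3 each). In LNCaP, 17 of 56 recurrent sites were listed in all 3 libraries with 10 nM and in none with vehicle, a share of 30.4% where the same held for 11.8% of all sites recurrent in that line. In VCaP it was 10 of 39, 25.6%, where the genome had 5.06%. A site listed in all 3 libraries with 10 nM counts as recurrent through them alone, in the window and in the genome. These shares are therefore descriptions. The reverse pattern, listed in all 3 vehicle libraries and in none with 10 nM, was seen at 1 LNCaP site (-42.8 kb) and at 0 VCaP sites, where 0.849% and 0.899% of all sites had it.

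The dose at which a site was first listed in all 3 libraries, and stayed listed in all libraries of the higher doses, differed between sites. In LNCaP, among sites listed in no vehicle library, 1 entered at 0.03 nM (+117.5 kb), 3 at 0.06 nM (+137.7, +65.3 and +6.0 kb), 1 at 0.1 nM (+2.7 kb) and 12 only at 10 nM. In VCaP, 2 entered at 0.06 nM (+6.0 and +160.7 kb) and 8 only at 10 nM. Sites entering only at 10 nM could count as recurrent through those libraries alone. A further 11 sites in LNCaP and 5 in VCaP were listed in all 15 libraries of the line. The 0.1 nM dose was given only to LNCaP and 0.01 nM only to VCaP.

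**Figure D2:**
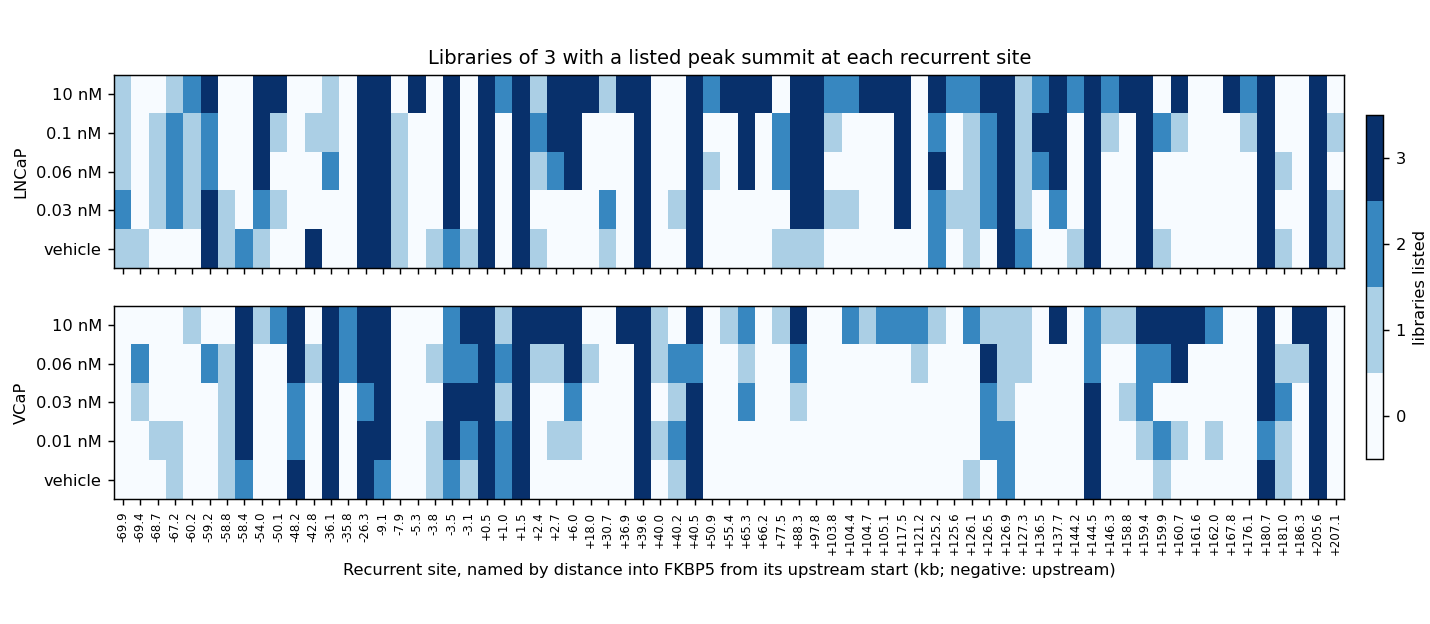
Number of libraries, of 3, in which each of the 71 recurrent sites was listed (colour) by R1881 dose (vertical axis) in LNCaP and VCaP, with sites in order of their distance into FKBP5 (horizontal axis). The row for 10 nM is the most filled in both lines, and 17 LNCaP and 10 VCaP sites are listed in all 3 libraries with 10 nM and in none with vehicle. Being listed in all 3 libraries with 10 nM is by itself enough to count as recurrent.

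Both starts were open in every group. The site at the downstream start, +39.6 kb (35688751 to 35689251), had ranks of 94.3, 94.5 and 92.8 with 10 nM in LNCaP, against 96.0, 95.3 and 94.3 with vehicle. In VCaP it had 87.1, 88.6 and 81.2 with 10 nM, against 79.3, 83.6 and 84.1 with vehicle. The groups overlapped in both lines, and none of the doses passed the test there.

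The site nearest the upstream start, +0.5 kb (35727870 to 35728370), also lies within LOC285847. In LNCaP its ranks ran from 92.1 to 93.0 with vehicle, 94.6 to 95.9 with 0.03 nM, 95.2 to 97.3 with 0.06 nM, 95.7 to 96.0 with 0.1 nM and 93.4 to 93.9 with 10 nM. It rose by 3.91 points at 0.06 nM (SE 0.893, adjusted p = 0.0155, limma) and by 3.17 points at 0.1 nM (adjusted p = 0.0383), and did not pass at 10 nM. These small rises turned into differences of -4.05 and -13.1 points when sites were ranked by fold enrichment over local background. Both calls were lost with all entries as deposited. The call at 0.06 nM was also lost without 0.06 nM replicate 4 or 5, and that at 0.1 nM when any single library compared was left out. In VCaP the ranks were 81.2, 70.8 and 89.2 with 10 nM, against 85.8, 85.3 and 93.4 with vehicle, and no dose passed. A further site, +205.6 kb (35522749 to 35523249), between genes and with the next highest mean rank, was also listed in all 30 libraries. Its ranks lay between 69.4 and 85.7 in LNCaP and between 57.4 and 84.4 in VCaP.

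The peak over the upstream start was wider with 10 nM. In LNCaP it measured 1771, 1690 and 1565 bp with vehicle, 1811, 1771 and 1882 bp with 0.1 nM, and 2699, 2742 and 2744 bp with 10 nM. In VCaP it measured 2728, 2465 and 2777 bp with 10 nM, against 1807, 1581 and 1966 bp with vehicle. No vehicle library reached the narrowest peak at 10 nM in either line. With 10 nM this single peak took in the summit at +2.7 kb (35725681 to 35726181), which at 0.06 and 0.1 nM in LNCaP was listed as a separate peak of 516 to 664 bp.

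The site at +2.7 kb had ranks of 70.5, 56.7 and 72.8 with 10 nM in LNCaP, against 0 in all vehicle libraries. It rose by 66.7 points in LNCaP (SE 9.09, adjusted p = 7.17e-05, limma). In VCaP its ranks were 32.04, 36.2 and 45.8 with 10 nM and 0 with vehicle, a difference of 38.0 points (SE 7.53). The site beside it, +2.4 kb (35725945 to 35726445), had ranks in VCaP of 51.6, 40.8 and 52.8 with 10 nM, against 0 with vehicle. The sites at +2.4 and +2.7 kb lie within 1 peak at 10 nM, so they are not separate pieces of evidence. Ranked by fold enrichment, the LNCaP rise at +2.7 kb did not pass.

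The intragenic site at +6.0 kb (35722362 to 35722862) had the highest mean rank in LNCaP with 10 nM of all sites in the window. In LNCaP it was listed in no vehicle or 0.03 nM library, had ranks of 73.4, 73.0 and 40.9 with 0.06 nM, 92.2, 93.8 and 78.3 with 0.1 nM, and 97.3, 96.8 and 97.5 with 10 nM. It rose by 62.4 points at 0.06 nM (SE 8.48, adjusted p = 2.33e-04, limma), 88.1 at 0.1 nM (adjusted p = 5.66e-06) and 97.2 at 10 nM (adjusted p = 1.24e-06). With 10 nM it had the highest rank of all sites in the window in all 3 LNCaP libraries and in 2 of the 3 VCaP libraries. In every other library of both lines but 1, the first place belonged to +39.6 or +0.5 kb, and in VCaP 0.01 nM replicate 2 to +40.2 kb.

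In VCaP the same site was at 0 in all vehicle libraries and was listed with 0.01 nM in replicate 4 only, at a rank of 0.491, and with 0.03 nM at 43.9, 0 and 71.8. It had 77.8, 57.9 and 83.0 with 0.06 nM and 86.7, 93.7 and 90.8 with 10 nM. The groups with 10 nM and vehicle did not overlap, and the rise was 90.4 points (SE 16.7, adjusted p = 0.00347, limma). At 0.06 nM every VCaP library lay above every vehicle library, but neither this site nor any of the 34 sites passed, with 0.685% called in the genome and 3 sites of the window at an unadjusted p under 0.05.

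The site at +117.5 kb (35610808 to 35611308), deep in the gene, entered at the lowest LNCaP dose. Its summit pileup, the number of sequenced fragments or reads stacked at the summit as recovered from each entry's fold enrichment and −log10 p, was 27, 31 and 30 with 0.03 nM, 78, 82 and 109 with 0.06 nM, 135, 155 and 128 with 0.1 nM, and 226, 270 and 270 with 10 nM. No vehicle library listed it. Each dose group lay wholly above the one below it. Its rank already stood at 54.9, 66.2 and 66.8 with 0.03 nM, and the step to 0.1 nM was 27.0 points (SE 4.09, adjusted p = 0.00479, limma). Beyond 0.1 nM the ranks of 92.1, 93.5 and 96.6 with 10 nM were above the 90.9, 90.9 and 87 with 0.1 nM by an amount that did not pass the test. In VCaP it was listed with 10 nM only, in replicates 1 and 4, at ranks of 61.6 and 58.6 and pileups of 35 and 32, and so fell short of the 3 libraries needed for a test.

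The order in which +117.5 and +6.0 kb were listed differed between the lines. Background pileups were 1.09 to 2.74 in VCaP and 3.06 to 5.26 in LNCaP, and the part of depth in this order was not tested. In LNCaP with 0.03 nM, +117.5 kb was listed in 3 libraries and +6.0 kb in 0. In VCaP with 0.03 nM, +117.5 kb was listed in 0 libraries and +6.0 kb in 2. The difference between the lines in the change at 0.03 nM could be tested only for +6.0 kb, where it was -38.6 points for LNCaP minus VCaP (SE 16.6, adjusted p = 0.547, limma), which did not pass. No site of the window passed at 0.03 nM, with 0.279% called in the genome and 2 of 22 sites at an unadjusted p under 0.05.

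**Figure D3:**
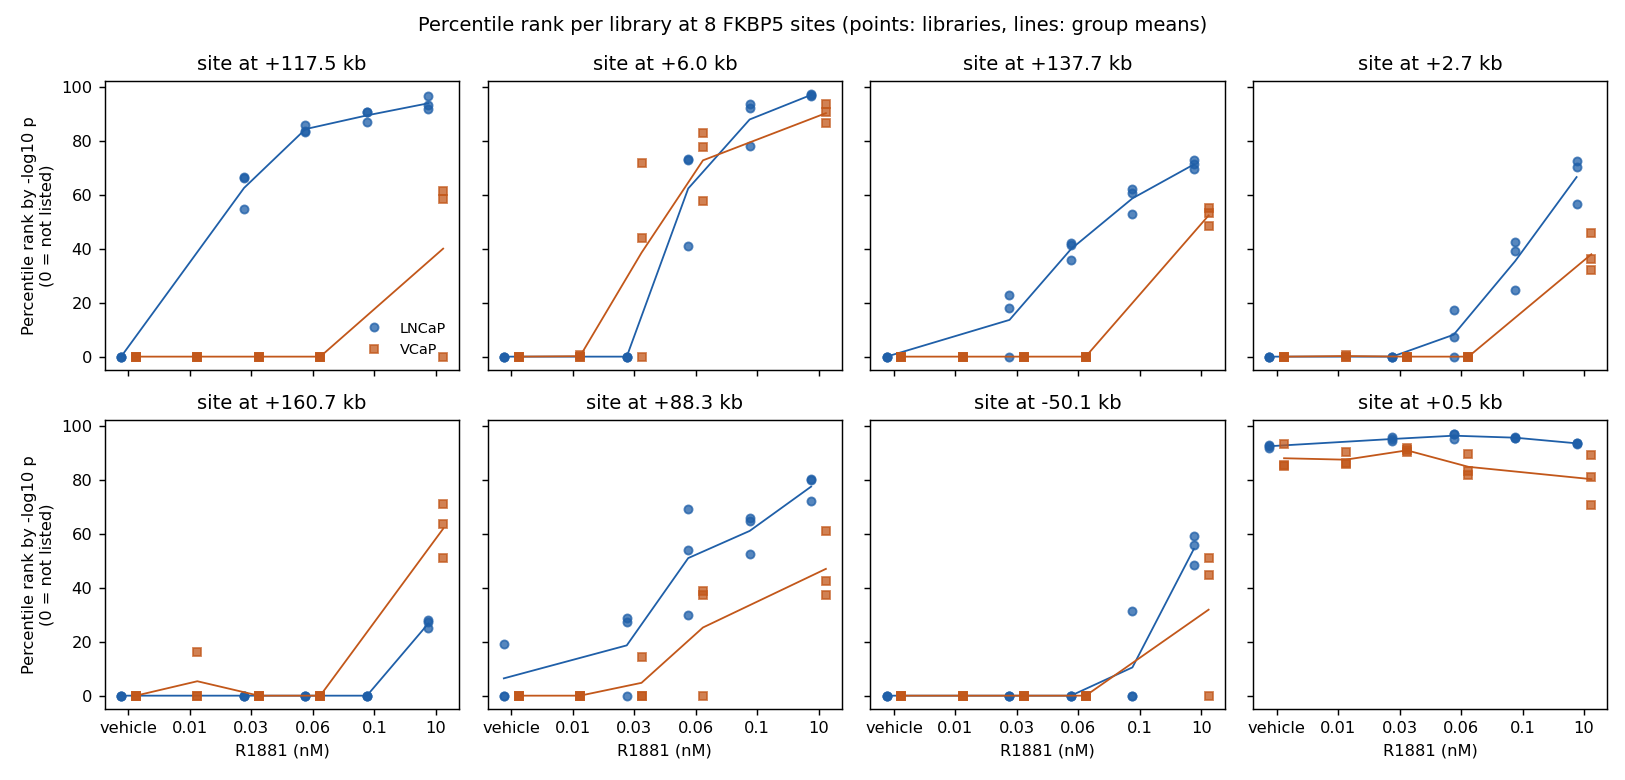
Percentile rank (vertical axis, 0 for not listed) by R1881 dose in nM (horizontal axis) at 8 FKBP5 sites, with a point for each library and a line through group means. In LNCaP, +117.5 kb is at 54.9 or above from 0.03 nM while +6.0 kb is at 0 there, and +0.5 kb lies between 92.1 and 97.3 in every LNCaP library.

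Other sites in the gene body rose later or less. The site at +137.7 kb (35590631 to 35591131) was at 0 in all LNCaP vehicle libraries and had ranks of 23, 0 and 17.9 with 0.03 nM, 36.0, 42.2 and 41.6 with 0.06 nM, 60.9, 53.1 and 62.4 with 0.1 nM and 69.6, 73.0 and 71.5 with 10 nM. The rise was 39.9 points at 0.06 nM (SE 8.54, adjusted p = 0.00991, limma) and 71.4 at 10 nM (adjusted p = 2.38e-05). In VCaP it was listed only with 10 nM, at 55.4, 53.3 and 48.7, a difference of 52.4 points from vehicle (SE 9.0).

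The site at +88.3 kb (35640060 to 35640560) had 80.5, 72.4 and 80.0 with 10 nM in LNCaP, against 19.3, 0 and 0 with vehicle, a rise of 71.2 points (SE 11.04, adjusted p = 2.04e-04, limma). Its VCaP ranks were 37.5, 61.3 and 42.4 with 10 nM, against 0 with vehicle (adjusted p = 0.0332), and that call was lost when any 1 of the 6 libraries compared was left out. The site at +65.3 kb (35663064 to 35663564) had 62.5, 39.8 and 47.2 with 10 nM in LNCaP and 0 with vehicle, a rise of 49.8 points (SE 9.32, adjusted p = 9.18e-04), and did not pass in VCaP. The site at +36.9 kb (35691415 to 35691915) was listed at no dose but 10 nM. Its ranks were 32.8, 19.6 and 30.1 in LNCaP and 27.6, 49.6 and 28.7 in VCaP, which put it 27.5 points above vehicle in LNCaP and 35.3 in VCaP.

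Just past the 3′ end of the gene, sites at +159.4 and +160.7 kb were higher with 10 nM in both lines. The site at +159.4 kb (35568886 to 35569386), between genes, had ranks of 82.9, 72.5 and 77.7 with 10 nM in LNCaP, against 37.1, 43.8 and 51.0 with vehicle. In VCaP it had 59.2, 43.6 and 70.3 with 10 nM and 0 with vehicle. It rose by 33.8 points in LNCaP (SE 7.097, adjusted p = 0.00227, limma) and by 57.7 in VCaP (SE 13.7, adjusted p = 0.0147). The VCaP call was lost without VCaP 10 nM replicate 1 or 4, when sites were ranked by fold enrichment and when only entries of −log10 q 5 or more were kept. The peak that held it measured 2311, 2656 and 1587 bp in LNCaP with 10 nM, against 494, 827 and 315 bp with vehicle. Ranked by fold enrichment, the LNCaP difference became -5.59 points, while its pileup was 172, 182 and 172 with 10 nM, against 16, 22 and 20 with vehicle.

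The neighbour at +160.7 kb (35567591 to 35568091) had 27.2, 25.02 and 28.3 with 10 nM in LNCaP and 51.2, 63.6 and 71.2 in VCaP, and 0 in every vehicle library of both lines. The differences from vehicle were 26.8 points in LNCaP (SE 4.12) and 62.0 in VCaP (SE 10.8). In VCaP with 0.06 nM all 3 deposited lists held it, at fold enrichments of 2.40, 2.28 and 2.35, below the shortened lists. The site at +186.3 kb (35541996 to 35542496), also between genes, was listed in no LNCaP library. In VCaP it had 54.0, 34.4 and 70.3 with 10 nM and 0 with vehicle, a difference of 52.9 points (SE 11.3).

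Upstream of the gene, -50.1 kb (35778388 to 35778888), within CLPSL2, had ranks of 59.1, 55.8 and 48.5 with 10 nM in LNCaP and 0 with vehicle, a difference of 54.5 points (SE 8.82). The site at -5.3 kb (35733657 to 35734157), within LOC285847 and ARMC12, was listed only in LNCaP with 10 nM, at 29.3, 19.6 and 35.9, a difference of 28.3 points. The remaining LNCaP rises at 10 nM were at -54.0 and +126.5 kb, by 56.1 and 51.0 points, and both calls were lost when single libraries were left out. The site at +158.8 kb, which in LNCaP was listed only with 10 nM, was 16.9 points above vehicle in that line.

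The low doses in LNCaP called fewer sites, all as rises. At 0.03 nM 1 site of 37 was called (+117.5 kb), where the genome had 2.27%, and 1.98% as rises. At 0.06 nM 7 sites rose, where the genome had 4.89% called and 4.32% as rises. At 0.1 nM 8 rose, against 8.27% called in the genome and 6.53% as rises. The sites called at 0.1 nM were +137.7, +117.5, +97.8, +88.3, +6.0, +2.7, +0.5 and -54.0 kb, and all but +2.7 kb were also called at 0.06 nM. Without LNCaP vehicle replicate 4 or 5, or 0.06 nM replicate 3, 4 sites were called at 0.06 nM, and 3 without 0.06 nM replicate 4. At 0.1 nM 5 were called without vehicle replicate 4 or 0.1 nM replicate 4, and 4 without 0.1 nM replicate 3. In VCaP, 0 sites were called at 0.01, 0.03 and 0.06 nM in limma's test, with 0.0452%, 0.189% and 0.685% called in the genome, and 1, 2 and 3 sites of the window had an unadjusted p under 0.05.

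Between doses in LNCaP, 3 sites were higher with 0.1 nM than with 0.03 nM (+117.5, +137.7 and +6.0 kb), with 1.38% called in the genome, 1.21% as higher. With 10 nM, 5 sites were higher and 2 lower than with 0.1 nM, with 5.09% called in the genome, 3.25% as rises and 1.84% as falls. The 5 were -50.1, -5.3, +36.9, +158.8 and +160.7 kb, all among the sites that reached the filter only with the 10 nM libraries, so nothing is read from them. Ranked by fold enrichment, 1 site was higher and 4 lower with 10 nM than with 0.1 nM (3.54% and 1.78% in the genome), and with all entries as deposited 11 were higher and 1 lower (3.39% and 0.566%). Without 10 nM replicate 3, 4 or 5, the count was 2, 3 or 2, with -5.3, +36.9, +158.8 and +160.7 kb no longer tested. In VCaP 5 sites were higher with 10 nM than with 0.06 nM (+160.7, +137.7, +36.9, +2.7 and +2.4 kb), with 1.3% called in the genome, 1.11% as higher. All 5 reached the filter only with the 10 nM libraries, and single libraries moved the count. It was 1, 2 and 3 without 0.06 nM replicates 1, 2 and 4, and 2 without 10 nM replicate 1 or 4. None of the 34 sites was called between 0.01 and 0.06 nM in VCaP, with 0.00353% called in the genome and 2 sites at an unadjusted p under 0.05.

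The site at +97.8 kb (35630509 to 35631009), singled out after its values were seen, was listed only in LNCaP and had its highest mean rank at 0.1 nM. Its ranks were 0, 8.15 and 0 with vehicle, 48.0, 32.9 and 0 with 0.03 nM, 52.7, 53.9 and 32.6 with 0.06 nM, 58.2, 53.8 and 46.1 with 0.1 nM and 36.7, 30.7 and 32.03 with 10 nM. The groups with 10 and 0.1 nM did not overlap, but the difference between them was not called. Its pileup was 32, 52 and 44 with 10 nM, against 32, 34 and 41 with 0.1 nM, and its solved local background was 5.65, 10.7 and 8.43 with 10 nM, against 3.12, 4.58 and 5.05 with 0.1 nM. The rank was lower with 10 nM while the pileup was not, and the part of the local background in the ranks was not tested.

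The falls at 10 nM in LNCaP were at +40.5 and +144.5 kb. At +40.5 kb (35687838 to 35688338), inside the peak over the downstream start, ranks were 33.0, 49.3 and 30.2 with 10 nM, against 80.2, 78.3 and 93.9 with vehicle, a change of -46.6 points (SE 5.19, adjusted p = 1.27e-05, limma). Its pileups were 70, 140 and 88 with 10 nM, against 99, 111 and 85 with vehicle, and the groups overlapped. The solved local background there was 25.8, 41.4 and 30.5 with 10 nM, against 16.3, 21.2 and 11.3 with vehicle. The call was lost when a peak covering the site's centre counted as listing it.

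At +144.5 kb (35583784 to 35584284) the ranks were 33.5, 45 and 38.8 with 10 nM, against 54.8, 58.0 and 71.6 with vehicle, a change of -22.4 points (SE 6.51, adjusted p = 0.0194, limma). The pileup was 35, 71 and 53 with 10 nM, against 24, 30 and 26 with vehicle, so that the groups stood apart in the other direction. The local background was 7.50, 12.9 and 10.1 with 10 nM, against 3.06, 4.05 and 4.83 with vehicle. The difference became 6.35 points when only entries of −log10 q 5 or more were kept. The call was lost without LNCaP vehicle replicate 5 and without 10 nM replicate 3 or 5. It was also lost with all entries as deposited, with the 50000 strongest entries and with only the groups compared.

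Pileups set the rises beside one another on a scale that the local background does not enter, though the depth of each library does. At +6.0 kb in LNCaP the pileup was 100, 104 and 80 with 0.06 nM, 243, 340 and 188 with 0.1 nM and 629, 583 and 515 with 10 nM. The fold enrichment of the same site was 9.55, 6.43 and 6.79 with 10 nM, against 9.23, 8.84 and 5.11 with 0.1 nM, so that the doses overlapped on that scale and stood apart in pileup. The local background at +6.0 kb was 65.0, 89.8 and 75.1 with 10 nM, against 25.4, 37.6 and 36.0 with 0.1 nM. Divided by the background pileup of its own library, +6.0 kb stood at 154.7, 114 and 125 with 10 nM, and +0.5 kb at 123, 113 and 116 with 10 nM, against 66.0, 63.7 and 20.9 with vehicle.

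At the downstream start, +39.6 kb, this ratio was 81.9, 70.6 and 64.4 with 10 nM in LNCaP, against 81.7, 71.1 and 18.0 with vehicle. The lowest value in each vehicle set is replicate 5, which was also low with 0.03 nM, at 23.5 for +39.6 kb and 32.9 for +0.5 kb. Without vehicle replicate 5, 13 LNCaP sites were called at 10 nM. In VCaP the ratio at +0.5 kb was 65.4, 24.1 and 75.3 with 10 nM, against 61.6, 24.8 and 52.5 with vehicle, and the groups overlapped. At +6.0 kb in VCaP it was 58.6, 35.2 and 64.2 with 10 nM and 39.5, 13.2 and 34.3 with 0.06 nM.

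**Figure D4:**
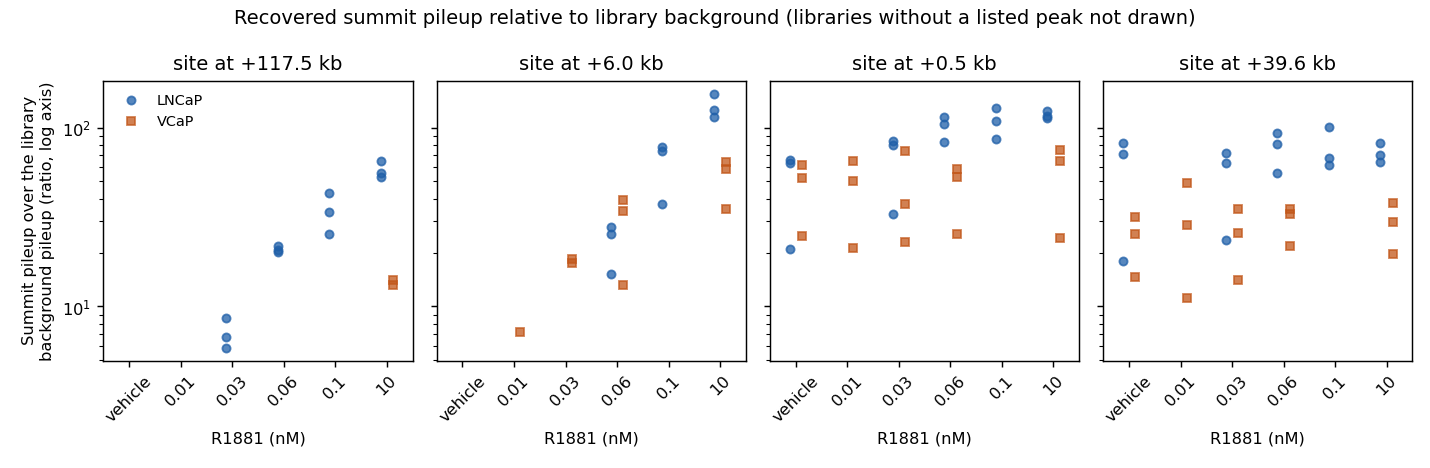
Summit pileup divided by the library's background pileup (vertical axis, log scale) by R1881 dose in nM (horizontal axis) at 4 FKBP5 sites, with a point for each library that listed the site. In LNCaP +6.0 kb reaches 114 to 154.7 with 10 nM, alongside +0.5 kb at 113 to 123, while +39.6 kb stays between 18.0 and 101 over all doses.

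At 10 nM, 7 sites were called as rises in both lines (+160.7, +159.4, +137.7, +88.3, +36.9, +6.0 and +2.7 kb), which is 7 of the 14 LNCaP rises and 77.8% of the 9 VCaP rises. Over the genome, 17.9% of LNCaP rises and 64.1% of VCaP rises were called in both lines. Of the 7, only +159.4, +88.3 and +6.0 kb reached the filter in both lines without the 10 nM libraries. Of the VCaP calls outside them, +2.4 kb was tested in LNCaP without passing and +186.3 kb was listed in no LNCaP library. The 22 sites tested in both lines were also tested for a difference between the lines in the change from vehicle. At 10 nM 1 site was called, +160.7 kb, with -35.2 points for LNCaP minus VCaP (SE 7.66), where 2.06% of all sites were called and 0.779% as lower in LNCaP. That site reached the filter only with the 10 nM libraries in both lines, so nothing is read from its call. At 0.06 nM 1 site passed, +137.7 kb, with 39.9 points (SE 9.50, adjusted p = 0.0428, limma), where 0.804% were called and 0.501% as higher in LNCaP. In VCaP +137.7 kb reached the filter only with the 10 nM libraries and was at 0 with vehicle and 0.06 nM. The 39.9 points are therefore the LNCaP change alone. For +6.0 kb at 10 nM the difference was 6.78 points with a 95% interval from -27.5 to 41.1, and for +2.7 kb it was 28.7 points from 9.83 to 47.5 (adjusted p = 0.112). Both calls between the lines were lost under other settings, including VCaP vehicle held to its deepest library. At 0.06 nM no site was called when any library compared but VCaP vehicle replicate 4 was left out. At 10 nM none was called without LNCaP 10 nM replicate 4 or 5, and 2 were called without VCaP 10 nM replicate 4.

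**Figure D5:**
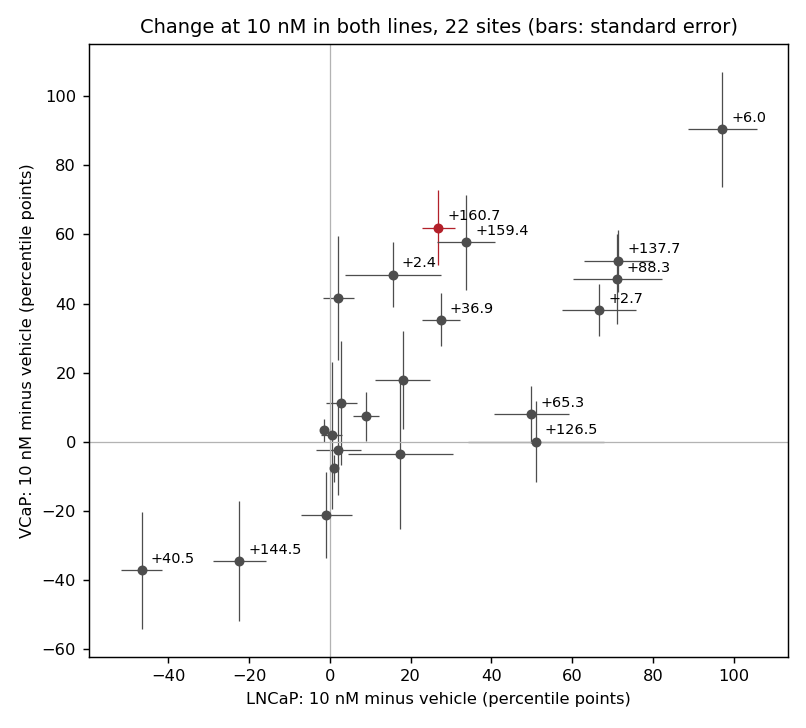
Change in percentile points with 10 nM against vehicle in LNCaP (horizontal axis) and VCaP (vertical axis) at the 22 sites tested in both lines, with standard errors as bars. Red marks the site called for a difference between the lines, which reached the filter only with the 10 nM libraries. The site at +6.0 kb lies at 97.2 in LNCaP and 90.4 in VCaP, and +160.7 kb at 26.8 in LNCaP and 62.0 in VCaP.

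Outside the window, the sites whose ranks followed +117.5 kb most closely over the 30 libraries were sought among 95725 sites tested in both lines. The 5 with the highest Pearson r and different nearest genes were near VSTM2A (0.991), YTHDF3 (0.985), PCDH7 (0.982), CFDP1 (0.981) and TMEM132B (0.975). The 30 libraries share line, dose and depth, so these values are descriptions. The site nearest VSTM2A lay 87.8 kb from that gene's body, and those of CFDP1 and TMEM132B lay within the gene. Its mean ranks in LNCaP were 0 with vehicle, 59.3 with 0.03 nM, 77.2 with 0.06 nM, 82.7 with 0.1 nM and 87.0 with 10 nM, and 33.3 in VCaP with 10 nM.

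FKBP5 was set beside 21 other genes of steroid receptor chaperone complexes, the glucocorticoid receptor gene included, counting sites within 10 kb of each gene body. FKBP5 itself had 28 tested sites in LNCaP, of which 12 rose and 2 fell at 10 nM, and 24 in VCaP, of which 8 rose. Among these LNCaP rises, -5.3, +36.9, +158.8 and +160.7 kb reached the filter only with the 10 nM libraries. Among the VCaP rises, +2.4, +2.7, +36.9, +137.7 and +160.7 kb did so. The counts of the other genes were not split in this way, so the counts are descriptions. The 21 other genes had 127 tested sites in LNCaP, of which 4 rose (3.15%) and 11 fell (8.66%), where 14.98% of all sites in the genome rose and 8.75% fell. At least 1 site rose for 4 of these genes and fell for 9, with both at 0 genes and neither at 8. In VCaP they had 131 tested sites, of which 1 rose (0.763%, at HSP90AB1) and 1 fell (0.763%, at NR3C1), where 5.35% of all sites rose and 1.71% fell.

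Values here are of the site of smallest p of each gene. Whether the sites that rose reached the filter without the 10 nM libraries was not checked, so their values are descriptions. CDC37, the cochaperone that brings kinases to HSP90, rose at 1 of 4 sites, to 77.1 ± 4.70 with 10 nM in LNCaP, against 3.46 ± 6.00 with vehicle (SD, n = 3 each, adjusted p = 3.26e-05, limma). ST13, which encodes the HSP70-interacting protein Hip, was called as higher at 1 of 4 sites, which had 57.2 ± 2.55 with 10 nM and was not listed with vehicle. NR3C1, the glucocorticoid receptor gene, fell at 2 of 7 sites, with 85.5 ± 2.44 with 10 nM against 93.3 ± 0.356 with vehicle at the first of them (adjusted p = 0.00125). FKBP4, which encodes FKBP52, the close relative of FKBP51 in the same complexes, fell at 1 of 7 sites, with 55.5 ± 10.1 with 10 nM against 77.5 ± 4.17 with vehicle (adjusted p = 0.0225). Falls were also called at HSP90AA1, HSP90AB1, HSPA8, HSPA4, AHSA1, PPP5C and UNC45A, and rises at PTGES3 and BAG1.

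The labels were compared with markers, counting a gene as open where a summit lay within 1 kb of its start. Of 9 luminal prostate genes, 8 were open in all 15 LNCaP libraries and 7 in all 15 VCaP libraries, the exceptions being KRT8 in both lines, listed in 1 and 7 libraries, and KLK3 in VCaP, listed in 0. The basal markers TP63 and KRT14 and the leukocyte marker PTPRC were open in no library, while the stromal gene PDGFRA was open in all 30 and the immune gene CD14 in 9 LNCaP and 15 VCaP libraries. An open start is not a measure of expression. The deposited lists ran from 135254 to 223998 entries (LNCaP) and from 105034 to 170787 (VCaP), and background pileups were 3.06 to 5.26 in LNCaP.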

How the data were processed

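Omni-ATAC-seq peak lists of 30 libraries were used, 1 list per library. The build was GRCh38 (hg38), and the tools were MACS2 2.2.7.1, BWA 0.7.17, deepTools 3.5.1 and Trimmomatic 0.39, per the submitters' processing notes. The deposited columns used were the fold enrichment, a ratio of the summit to local background, the −log10 p and −log10 q and the summit offset. The deposited score repeats the −log10 p.

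Summits on chromosomes 1 to 22, X and Y, strongest first, gave site centres more than 250 bp apart, and each entry went to its nearest centre. Lists were shortened by −log10 p to 134964 entries in LNCaP and 104924 in VCaP. Tests took the sites that 3 or more libraries of a line listed, 181357 in LNCaP, 141555 in VCaP and 95747 in both, with limma 3.58.1 in R 4.3.3 (group means, trend, robust, two-sided). Summit pileup and local background were solved from fold enrichment and −log10 p under a Poisson model with a pseudocount of 1, and 100% of pileups were whole within 0.05. Background pileup means percentile 1 of the solved backgrounds in a library. Read numbers per library are unknown, so no counting interval is given, and no fold is given against a group at 0. The fit was tested on simulated data.

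No 2 lists were identical. Replicate numbers are shared by the groups of a line but were not taken as pairs, since no label says that a number marks a shared batch. The members, gene lists, tests and most alternatives were chosen with earlier results of these data known. Values in every library are given for sites called at any dose (at most 12 per line by p at 10 nM), the sites nearest the FKBP5 starts and the 3 of highest mean rank. A planned motif search in the sites needed a genome and was not run, and 1 gene of the chaperone and luminal lists is not reported here.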

Additional observations from a re-analysis of the deposited data

Results flagged for a closer look

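Limma's test of the difference between the lines in the change from vehicle called 2 sites. At +137.7 kb with 0.06 nM it was 39.92 points for LNCaP minus VCaP, with ranks of 36.0, 42.2 and 41.6 in LNCaP and 0 in all VCaP libraries at that dose. At +160.7 kb with 10 nM it was -35.17 points, with 27.2, 25.02 and 28.3 in LNCaP and 51.2, 63.6 and 71.2 in VCaP. Vehicle libraries were at 0 at both sites in both lines. The site at +160.7 kb reached the filter on listed libraries only with those of 10 nM, so nothing is read from its call. In VCaP the same held for +137.7 kb, and its difference at 0.06 nM is the LNCaP change alone. VCaP lists were shortened to 104924 entries and LNCaP lists to 134964, so a percentile stands for a different depth of list in each line. With all entries as deposited, the difference at +160.7 kb was -20.6 points, and neither difference passed.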

How the results depend on the processing

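Counts of called sites in the window moved with these settings. With the fit held to the groups compared, they were 0 at 0.03 nM (1 in the reported fit), 1 at 0.06 nM (7) and 2 for 10 against 0.1 nM (7) in LNCaP, 0 for 10 against 0.06 nM in VCaP (5) and 0 for both line differences (1 each). With the 50000 strongest entries of each list, they were 0, 2, 3 and 7 at 0.03, 0.06, 0.1 and 10 nM (1, 7, 8 and 16) and 4 for 10 against 0.1 nM in LNCaP, 1 at 10 nM (9) and 0 for 10 against 0.06 nM in VCaP, and 0 for both line differences. With only entries of −log10 q 5 or more kept, they were 13 at 0.1 nM, 26 at 10 nM and 9 for 0.1 against 0.03 nM (3) in LNCaP, 2 at 10 nM and 0 for 10 against 0.06 nM in VCaP, and 0 for the line difference at 0.06 nM.

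Where a peak covering the centre base counted, they were 2, 14, 12 and 7 in LNCaP (0.03 nM, 0.1 nM, 10 against 0.1 nM, 0.1 against 0.03 nM), 18 and 12 in VCaP (10 nM, 10 against 0.06 nM) and 3 for the line difference at 10 nM. Where overlap with the site's window counted, they were 15, 25, 11 and 6 in LNCaP (0.1 nM, 10 nM, 10 against 0.1 nM, 0.1 against 0.03 nM), 1, 19 and 12 in VCaP (0.06 nM, 10 nM, 10 against 0.06 nM) and 4 for the line difference at 10 nM. Ranked by fold enrichment, they were 4 at 0.06 nM in LNCaP, 5 at 10 nM and 2 for 10 against 0.06 nM in VCaP, and 0 for the line difference at 0.06 nM. With all entries as deposited, they were 12 for 10 against 0.1 nM in LNCaP, 1 at 0.06 nM and 2 for 10 against 0.06 nM in VCaP, and 0 for both line differences. Sites listed in at least 8 of 15 libraries gave 2 for 10 against 0.1 nM in LNCaP, 1, 1 and 0 in VCaP (0.06 nM, 10 nM, 10 against 0.06 nM) and 0 for both line differences, with fewer sites tested. Sites listed in at least 1 library gave 4 at 0.06 nM in LNCaP, 1 for 10 against 0.06 nM in VCaP and 2 for both line differences. VCaP vehicle held to its deepest library, an alternative chosen after seeing the data, gave 0 at 10 nM in VCaP and 0 for the line differences at 0.06 and 10 nM, the lone vehicle library being assumed to vary like the other groups.

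Leaving out 1 library at a time gave 1 at 0.03 nM, 3 to 6 at 0.06 nM, 4 to 6 at 0.1 nM, 10 to 15 at 10 nM, 2 to 6 for 10 against 0.1 nM and 2 to 4 for 0.1 against 0.03 nM in LNCaP, 5 to 8 at 10 nM and 1 to 4 for 10 against 0.06 nM in VCaP, and 0 to 1 and 0 to 2 for the line differences at 0.06 and 10 nM. In 4 cases a difference reversed: +0.5 kb at 0.06 and 0.1 nM in LNCaP (-4.05 and -13.1 points ranked by fold enrichment), +159.4 kb at 10 nM in LNCaP (-5.59, the same setting) and +144.5 kb at 10 nM in LNCaP (6.35 with −log10 q 5 or more). The cause was not tested. The calls at +117.5, +6.0, +137.7 and +88.3 kb at 10 nM in LNCaP held under all 16 alternatives run for each.

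In the fit with a replicate block, the counts were 1, 6, 8 and 18 at 0.03, 0.06, 0.1 and 10 nM in LNCaP and 0, 0, 1 and 9 at 0.01, 0.03, 0.06 and 10 nM in VCaP. Same-numbered libraries deviated together weakly, with a median correlation of 0.138 in LNCaP and 0.111 in VCaP over 30 pairs each. Of these pairs, 24 and 17 were over 0.1. Over 60 pairs of different numbers in each line the median was -0.123 in LNCaP and -0.0836 in VCaP. Every VCaP library, and 10 of the 15 LNCaP libraries, correlated best with its own number, which is a hint from the data and not from the design.

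Signal under the authors' threshold in vehicle is not seen, and a site at 0 in 3 libraries shows no spread of its own.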
